A study of Homo sapiens with 6 samples.

Results

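The genes described here are the collagen chains and the enzymes that prepare and crosslink them: 44 chain genes, the 5 lysyl oxidases and the 3 lysyl hydroxylases. They were taken by gene symbol alone, every protein-coding row named as a collagen chain together with LOX, LOXL1 to LOXL4 and PLOD1 to PLOD3, which gave 52 of the 20263 rows of the count table. RNA sequencing libraries were made from HCCLM3, an established human hepatocellular carcinoma line, after 24 h with CC-885 (3 libraries) or with the solvent DMSO (3 libraries). CC-885 binds cereblon, the substrate receptor of a ubiquitin ligase, and steers the ligase to proteins such as the termination factor GSPT1. All libraries come from the same line in serum-containing medium, the sources used here give no dose, and nothing in the labels states separate cultures within a group, so p-values measure only how far these libraries differ, and that spread may be technical.

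Collagens are secreted proteins whose chains wind around each other in a long helix of repeated glycine-containing units. Fibrillar types build the cables of connective tissue, type IV builds the sheet of basement membranes, and other types link, cap or anchor these structures. In the endoplasmic reticulum the lysyl hydroxylases (PLOD genes) modify lysines of the nascent chains, and outside the cell the lysyl oxidases (LOX genes) oxidise lysines so that neighbouring molecules become covalently crosslinked. In the liver most fibrillar collagen is laid down by stellate cells and fibroblasts, and stiff, crosslinked matrix is a feature of fibrosis and of many tumours.

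Total counts per library ran from 30432509 to 39809131. The hepatocyte and hepatoma markers ALB, AFP, APOB, TTR and GPC3 were at 0 in every library, and the summed level of their marker list was 0.174 to 0.520 CPM under CC-885 and 1.23 to 1.55 CPM with DMSO (CPM, TMM-normalised counts scaled to a common library total by edgeR). The defining secretory markers of the labelled cell type were thus at or near 0 in both groups. HNF4A, the only gene of the list that was tested, was lower with CC-885. It had 5, 16 and 2 counts under CC-885 and 53, 49 and 34 with DMSO. The CC-885 libraries alone would not have carried HNF4A past the filter on low counts used below, which favours a lower call. Of the 5 epithelial markers the keratins KRT8 and KRT18 were abundant, at 890 ± 106 and 657 ± 58.5 CPM under CC-885 and 1252 ± 136 and 758 ± 66.1 CPM with DMSO (mean ± SD, n = 3), and KRT8 was lower by the test used below (log2 fold change -0.49, edgeR adjusted p = 0.0236). EPCAM (3.64 ± 1.18 and 3.46 ± 0.625 CPM) and CDH1 (3.78 ± 0.458 and 4.50 ± 1.19 CPM) were low, and KRT19 had 2 counts in 1 library and none in the others. Of 10 fibroblast and stellate markers LUM was at 0 in every library, PDGFRA and FAP had means under 0.1 CPM, and the summed level was 21.0 to 22.8 CPM under CC-885 and 78.8 to 102 CPM with DMSO, most of it from PDGFRB, at 14.1 ± 0.370 and 70.9 ± 10.7 CPM. Of these 10 genes 6 were tested, and 5 were lower and 0 higher by the test used below. Of all genes tested 26.8% were lower and 25.8% higher. DCN, 1 of the 5, passed the filter on low counts used below only through the DMSO libraries. THY1, also among the 5, had 18, 7 and 9 counts under CC-885 and 43, 31 and 26 with DMSO. Its CC-885 libraries alone would not have passed the filter. For both genes this favours a lower call. The part of the fibroblast and stellate genes in the collagen results was not tested. Endothelial markers summed to 3.11 to 4.93 CPM under CC-885 and 0.872 to 1.41 CPM with DMSO, with KDR at 0 and PECAM1 and TEK near 0. Both endothelial genes that were tested were higher, beside 25.8% of all genes tested. CDH5 was at 2.11 ± 0.366 and 0.168 ± 0.0143 CPM (SD, n = 3, edgeR adjusted p = 9.9e-06), with 6 counts in each DMSO library. CDH5 passed the filter on low counts only through the CC-885 libraries, which favours a higher call. VWF was at 1.88 ± 0.655 and 0.929 ± 0.258 CPM (edgeR adjusted p = 0.0232). The part of both genes in the collagen results was not tested. Leukocyte markers summed to 2.94 to 4.33 and 3.89 to 4.58 CPM, with PTPRC, CD3E and LYZ at 0. Fewer cells of a type and less RNA per cell cannot be told apart in such bulk libraries.

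The 6 type IV genes lie in the genome as head-to-head pairs, each pair transcribed outwards from a common stretch, and the sequences between their starts are shown because the results for type IV chains split by these pairs. They are from RefSeq, build GRCh38.p14, read on the plus strand, with GC boxes (GGGCGG on either strand) and CCAAT boxes (CCAAT on either strand) in capitals. Between the RefSeq starts of COL4A1 and COL4A2 lie 126 bases on chromosome 13, of which 30 around the CCAAT box are shown. The starts of COL4A4 and COL4A3 on chromosome 2 are 418 bases apart, and 191 of the bases before COL4A3 are shown. For COL4A6 and COL4A5 on the X chromosome the nearer of the listed COL4A6 starts leaves 379 bases and the farther 1415, and the 250 bases before COL4A5 are shown.
COL4A1 and COL4A2, chr13:110307167-110307196: gggccgagctccCCAATttgttggcgctgc
COL4A4 and COL4A3, chr2:227164374-227164564: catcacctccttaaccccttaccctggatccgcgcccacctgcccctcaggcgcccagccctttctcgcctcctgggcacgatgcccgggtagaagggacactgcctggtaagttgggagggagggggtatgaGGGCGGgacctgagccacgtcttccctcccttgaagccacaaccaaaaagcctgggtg
COL4A6 and COL4A5, chrX:108439588-108439837: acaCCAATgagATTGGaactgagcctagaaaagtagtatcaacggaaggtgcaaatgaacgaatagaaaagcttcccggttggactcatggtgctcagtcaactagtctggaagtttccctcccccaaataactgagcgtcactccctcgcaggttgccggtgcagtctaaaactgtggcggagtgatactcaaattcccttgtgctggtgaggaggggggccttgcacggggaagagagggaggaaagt
The stretches differ in base composition: G and C make up 80.2% of the 126 bases between COL4A1 and COL4A2, 66.4% of the 250 bases before COL4A3 and 51.2% of the 250 bases before COL4A5, beside a median of 58% over all RefSeq promoters. Over the same bases, in the same order, GC boxes number 1, 2 and 0 and CCAAT boxes 1, 0 and 2. The GC box between COL4A1 and COL4A2 and 1 of the 2 before COL4A3 lie outside the bases shown.

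Across the 52 genes, 35 passed the filter on low counts and were tested, 27 chains and all 8 enzymes. With CC-885, 7 were higher and 13 lower, and 15 were not called (edgeR quasi-likelihood test, adjusted p below 0.05 over all 13444 tested genes). Of all genes tested 25.8% were called higher and 26.8% lower, 52.6% in all, so the 20 called of 35, or 57.1%, is near the share of any tested gene. At least 2-fold lower were 9 of the 35 and at least 2-fold higher 1, where 10.3% and 8.23% of all genes tested were so. COL24A1 and COL5A3, among the 13 lower and among the 9, passed the filter only through the DMSO libraries, which favours a lower call. The 3 libraries of one group lay entirely above those of the other in 19 of the 35, or 54.3%, beside 61.1% of all genes tested. The median log2 fold change (CC-885 over DMSO) was -0.11 for the 35 and -0.04 for all genes tested. The collagen genes therefore did not move as 1 block. COL27A1, COL7A1, COL1A1, COL12A1, LOX, LOXL3 and PLOD3 rose, while COL5A1, COL5A3, COL11A2, COL24A1, COL4A3, COL4A4, COL4A5, COL4A6, COL6A1, COL9A3, COL15A1, COL17A1 and LOXL1 fell.

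**Figure D1:**
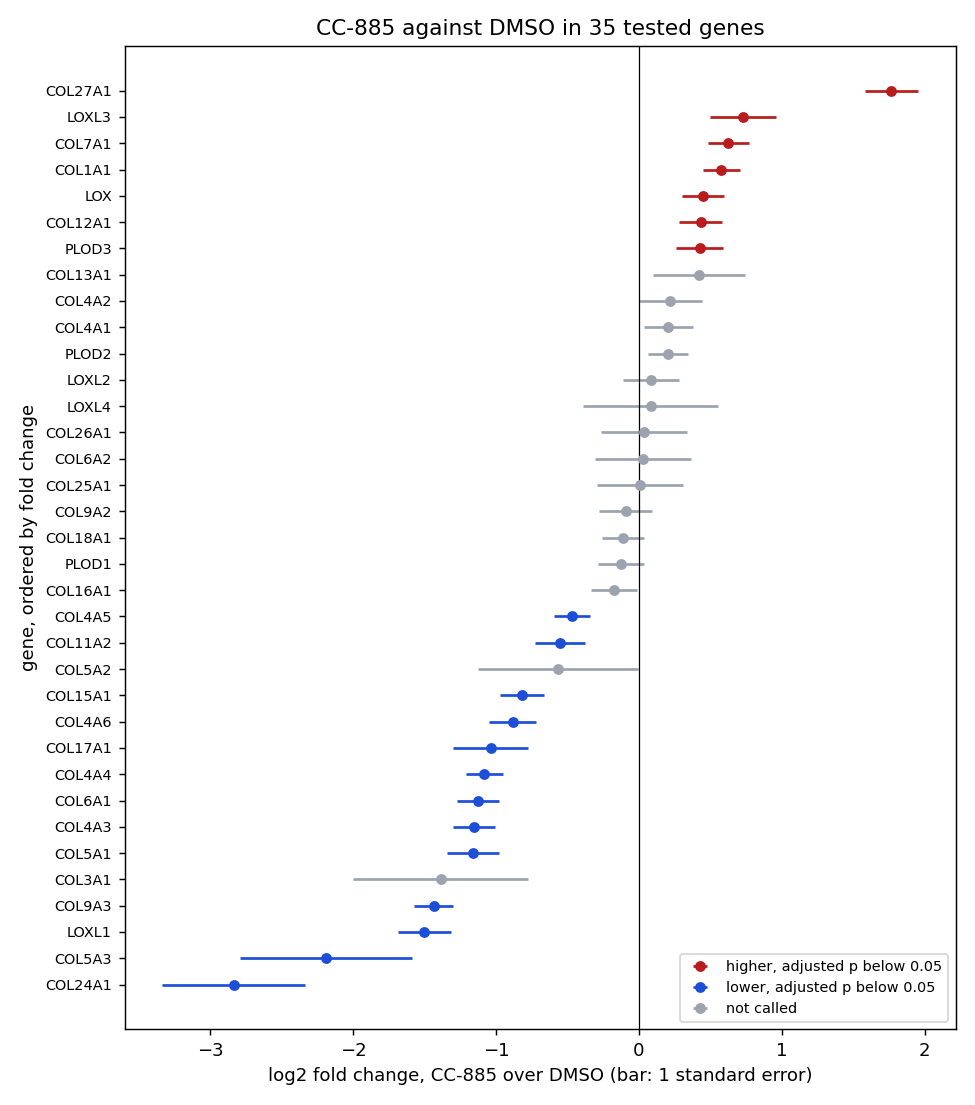
Log2 fold change of CC-885 over DMSO for the 35 tested collagen and crosslinking genes, ordered by size; points are edgeR estimates and bars 1 standard error, red for the 7 called higher, blue for the 13 called lower and grey for the 15 not called. COL27A1 stands apart at the top at 1.77, and COL24A1 and COL5A3 lie lowest, with wide bars. Both of the lowest genes passed the filter on low counts only through the DMSO libraries.

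The summed level of the 44 chains overlapped between the groups, but its make-up differed. It was 2429, 2413 and 2227 CPM in the CC-885 libraries and 2552, 1926 and 2670 CPM in the DMSO libraries, so the groups overlapped and DMSO replicate 2 was the lowest of all. COL7A1, COL4A2, COL12A1 and COL4A1 had the highest mean CPM of the chains under CC-885. Together they took 68.6, 69.1 and 68.5% of this sum under CC-885 and 51.5, 49.7 and 53.0% with DMSO. Choosing them by their CC-885 level favours a larger share there. With DMSO, COL5A1 and COL4A5 stood above COL12A1 and COL4A1 in mean CPM. The share of COL7A1 was 25.4 to 27.2% under CC-885 and 15.3 to 19.5% with DMSO, while that of COL5A1 was 6.82 to 7.65% and 14.5 to 17.4%. Shares of all fibrillar chains, COL5A1 among them, lay between 14.5 and 14.6% with CC-885 and between 20.4 and 22.03% with DMSO. COL1A1, also fibrillar, went the other way, at 6.18 to 7.05% and 3.94 to 5.04%, so the class did not share the lower sum. Shares of type IV chains overlapped, at 38.4 to 39.3% and 35.4 to 40.3%.

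**Figure D2:**
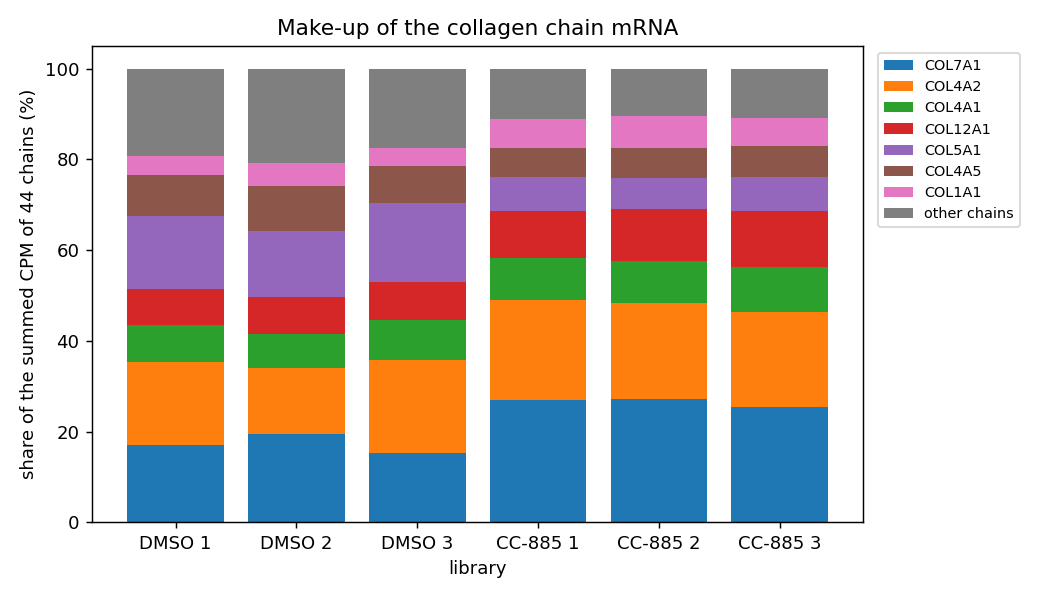
Share of each of the 7 most abundant chains, and of all other chains, in the summed TMM-normalised CPM of the 44 collagen chains, 1 bar per library. The COL7A1 part is larger and the COL5A1 part smaller in each CC-885 library than in each DMSO library.

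Per kilobase of exon the order of the genes changed as well. The length used was the union of the annotated exons of a gene. It can exceed the length of any single transcript, so the ranks depend on this choice. Dividing CPM by the exon length of the gene in kilobases, COL7A1 stood highest of the 35 with CC-885, at 67.5 ± 5.69 CPM per kilobase (SD, n = 3), above PLOD1 at 51.4 ± 1.48 and COL4A2 at 38.8 ± 2.46. With DMSO PLOD1 (56.1 ± 11.6 CPM per kilobase), COL9A3 (52.0 ± 4.65), COL5A1 (45.0 ± 11.1) and COL7A1 (43.7 ± 3.08) led, and each of these overlapped the next in that order over its 3 libraries. COL9A3 went from rank 2 with DMSO to rank 12 with CC-885, at 19.3 ± 2.25 CPM per kilobase. COL1A1 went from rank 13 (15.4 ± 0.925 CPM per kilobase) to rank 8 (23.0 ± 2.43).

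**Figure D3:**
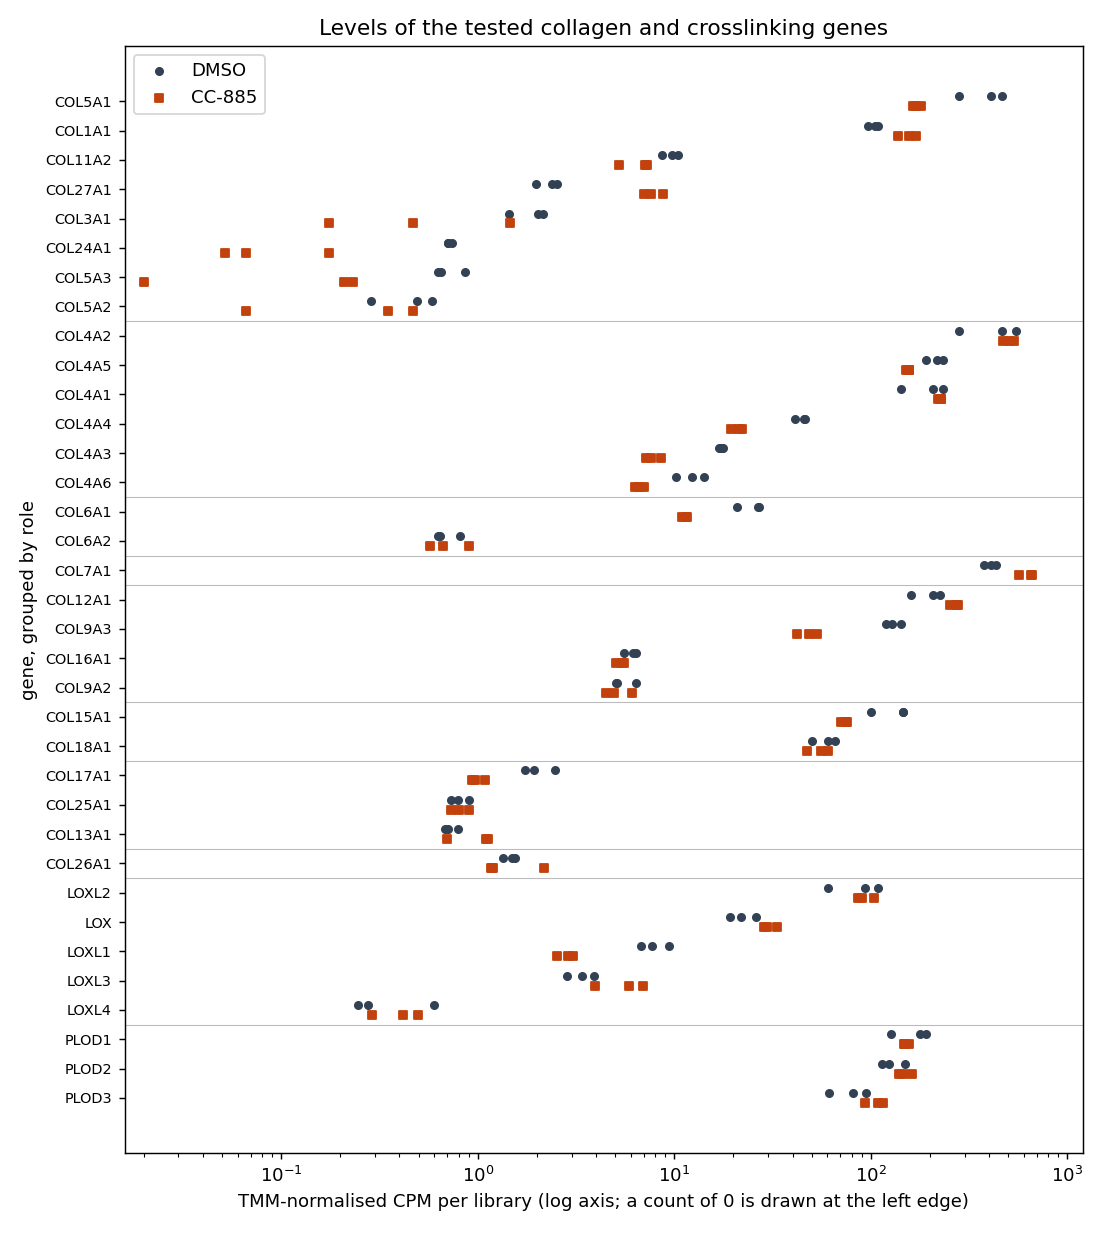
TMM-normalised CPM of the 35 tested genes in each library on a log axis, grouped by role (fibrillar, type IV, type VI, anchoring, fibril-associated, multiplexin, transmembrane and other chains, lysyl oxidases, lysyl hydroxylases); circles are DMSO and squares CC-885, and a count of 0 is drawn at the left edge. COL4A3, COL4A4, COL9A3, COL5A1 and LOXL1 show a clear gap between the groups, while the points of COL4A1, COL4A2, LOXL2 and PLOD1 overlap.

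The fibrillar chains went in different directions, COL27A1 and COL1A1 being higher and COL5A1, COL5A3, COL11A2 and COL24A1 lower. COL27A1 (ENSG00000196739), the chain of a thin-fibril collagen best known from cartilage, stood at 7.63, 7.02 and 8.78 CPM in the CC-885 libraries and at 2.38, 1.99 and 2.52 CPM in the DMSO libraries. Each CC-885 library was far above each DMSO library, and the gene was 3.40-fold higher (log2 fold change 1.77, SE 0.19, edgeR adjusted p = 2.24e-05). COL1A1 (ENSG00000108821), the major chain of type I collagen, was at 157, 170.1 and 138 CPM under CC-885 and at 109, 97.0 and 105 CPM with DMSO. The groups did not overlap, and COL1A1 was 1.49-fold higher (log2 fold change 0.58, SE 0.13, edgeR adjusted p = 0.00327). Its usual partner chain, COL1A2, had no counts in 5 libraries and 2 counts in CC-885 replicate 3, so these cells had transcripts for COL1A1 nearly without those for COL1A2 in both groups.

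COL5A1 (ENSG00000130635), the main chain of type V collagen, which sets the diameter of type I fibrils, was at 181, 164 and 170.4 CPM under CC-885 and at 408, 280.0 and 465 CPM with DMSO. All 3 CC-885 libraries lay below all 3 DMSO libraries, of which replicate 2 was the lowest. The gene was 2.24-fold lower (log2 fold change -1.16, SE 0.18, edgeR adjusted p = 0.000301). Its partner COL5A2 was scarce, at 0.067 to 0.468 CPM under CC-885 and 0.287 to 0.583 CPM with DMSO, and was not called (log2 fold change -0.56, SE 0.56, edgeR adjusted p = 0.42). COL5A3, a further type V chain, had 0, 0.208 and 0.232 CPM under CC-885 and 0.627, 0.654 and 0.859 CPM with DMSO. It was lower (log2 fold change -2.19, SE 0.60, edgeR adjusted p = 0.01), from 0 to 8 counts under CC-885 and 24 to 28 with DMSO. COL5A3 passed the filter on low counts only through the DMSO libraries, and with no filter its edgeR adjusted p was 0.0119.

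The other fibrillar chains were low. COL11A2, a cartilage chain that in other tissues joins type V molecules, was at 7.13, 7.28 and 5.26 CPM under CC-885 and 8.64, 9.72 and 10.4 CPM with DMSO, without overlap (log2 fold change -0.55, SE 0.17, edgeR adjusted p = 0.0202). That call was lost without CC-885 replicate 3 (-0.41, edgeR adjusted p = 0.0792). COL24A1, a fibrillar chain of developing bone, had 0.067, 0.052 and 0.174 CPM under CC-885 and 0.705, 0.708 and 0.737 CPM with DMSO. Its groups were far apart at this low level (log2 fold change -2.83, SE 0.50, edgeR adjusted p = 0.000705). It passed the filter on low counts only through the DMSO libraries, so a lower call was the one the filter favoured, and with no filter its edgeR adjusted p was 0.00108. COL3A1, the chain that accompanies type I in soft tissue, was at 0.466, 1.46 and 0.174 CPM under CC-885 and 2.14, 1.44 and 2.03 CPM with DMSO. It was not called (log2 fold change -1.39, SE 0.61, edgeR adjusted p = 0.0935). CC-885 replicate 2 was the library inside the DMSO range: without it the edgeR adjusted p was 0.000851 and the log2 fold change -2.55. With any other single library left out COL3A1 was not called (edgeR adjusted p = 0.126 to 0.237). COL2A1 and COL11A1 did not pass the filter, with at most 0.491 CPM in a library.

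The type IV chains split by gene pair. COL4A3 and COL4A4, which with COL4A5 form the network of the kidney's filtration barrier, both fell by about the same factor. COL4A3 (ENSG00000169031) was at 7.16, 8.53 and 7.61 CPM under CC-885 and at 17.3, 16.8 and 17.8 CPM with DMSO. COL4A4 (ENSG00000081052) was at 19.3, 21.4 and 22.1 CPM under CC-885 and at 45.4, 41.3 and 46.3 CPM with DMSO. In both genes the groups were well separated: COL4A3 was 2.22-fold lower (log2 fold change -1.15, SE 0.14, edgeR adjusted p = 7.36e-05). COL4A4 was 2.12-fold lower (-1.08, SE 0.13, edgeR adjusted p = 5.19e-05).

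COL4A5 and COL4A6 fell as well. COL4A5 (ENSG00000188153), the most abundant chain of the falling type IV genes, was at 156, 156 and 150.2 CPM under CC-885 and at 232, 192 and 216 CPM with DMSO. COL4A6 (ENSG00000197565), a chain of smooth muscle and epithelial basement membranes, was at 7.03, 6.29 and 6.60 CPM under CC-885 and at 12.3, 10.2 and 14.2 CPM with DMSO. Neither gene's groups overlapped. The log2 fold change was -0.47 for COL4A5 (SE 0.13, edgeR adjusted p = 0.00959), which no longer passed when DMSO replicate 1 was left out (-0.40, edgeR adjusted p = 0.055). It was -0.88 for COL4A6 (SE 0.17, edgeR adjusted p = 0.00109).

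COL4A1 and COL4A2, the chains found in nearly all basement membranes, were not called. COL4A1 (ENSG00000187498) was at 227, 228 and 219 CPM under CC-885 and at 208, 143 and 234 CPM with DMSO. COL4A2 (ENSG00000134871) was at 533, 507 and 470 CPM under CC-885 and at 467, 279 and 548 CPM with DMSO. In both, DMSO replicate 2 lay well below the other libraries and the groups overlapped. The log2 fold changes were 0.21 for COL4A1 (SE 0.17, edgeR adjusted p = 0.336) and 0.22 for COL4A2 (SE 0.22, edgeR adjusted p = 0.416). Without DMSO replicate 2 they were 0.04 (edgeR adjusted p = 0.762) and -0.0014 (edgeR adjusted p = 0.992).

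The ratio of the 2 chains of a pair within each library does not depend on the scaling between libraries. The COL4A1 to COL4A2 count ratio was 0.425, 0.449 and 0.466 under CC-885 and 0.445, 0.511 and 0.426 with DMSO. The COL4A3 to COL4A4 ratio was 0.371, 0.399 and 0.344 under CC-885 and 0.381, 0.408 and 0.384 with DMSO. Both ratios overlapped between the groups, with differences in mean log2 ratio of -0.04 and -0.08 (2-sided exact permutation p = 0.8 and 0.4). The ratio of COL4A5 to COL4A6 was 22.1, 24.8 and 22.7 under CC-885 and 18.8, 18.8 and 15.2 with DMSO, a difference of 0.41 in mean log2 ratio without overlap (exact permutation p = 0.1). In all, 7 partner pairs were compared, and 3 libraries against 3 cannot give a p below 0.1, which becomes 0.233 after Benjamini-Hochberg adjustment over the 7. COL5A1 to COL5A2 (difference in mean log2 ratio -0.25, exact permutation p = 0.7) and COL3A1 to COL5A2 (-0.98, exact permutation p = 0.5) overlapped between the groups, and with 1 library left out they ran from -1.06 to 0.27 and from -1.72 to 0.025. COL4A1 and COL4A2 overlap each other on opposite strands in GENCODE 29, and no source used here says that strand was used in counting.

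**Figure D4:**
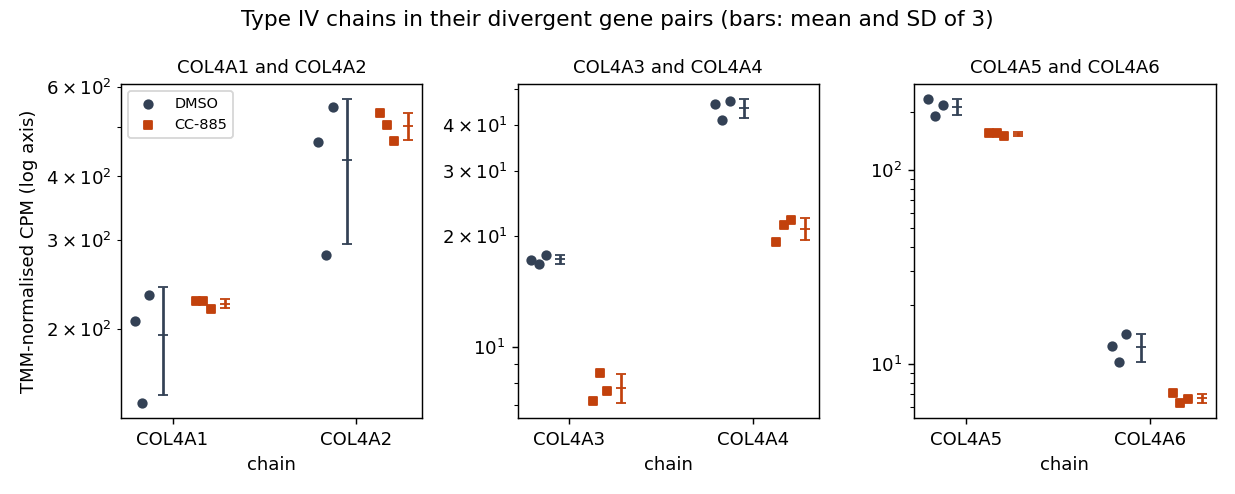
TMM-normalised CPM of the 6 type IV chains in each library, 1 panel per head-to-head pair, each with its own log axis; circles are DMSO, squares CC-885, and the bars give mean and SD of 3 libraries. COL4A3, COL4A4, COL4A5 and COL4A6 lie lower with CC-885, and in the first panel DMSO replicate 2 is the low circle of COL4A1 and COL4A2.

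Type VI collagen forms beaded filaments around cells from COL6A1, COL6A2 and a longer chain such as COL6A3, and here COL6A1 was the only abundant one. COL6A1 (ENSG00000142156) was at 11.5, 11.5 and 10.98 CPM under CC-885 and at 27.0, 20.8 and 26.5 CPM with DMSO. The groups were well apart, and the gene was 2.18-fold lower (log2 fold change -1.13, SE 0.15, edgeR adjusted p = 0.000105). COL6A2 was at 0.899, 0.572 and 0.668 CPM under CC-885 and at 0.809, 0.626 and 0.645 CPM with DMSO (log2 fold change 0.03, SE 0.34, edgeR adjusted p = 0.951), a value whose sign changed with library-size scaling. The COL6A1 to COL6A2 count ratio was 12.6, 19.8 and 16.1 under CC-885 and 32.8, 32.6 and 40.3 with DMSO (difference in mean log2 ratio -1.14, exact permutation p = 0.1, adjusted 0.233). COL6A3 had at most 0.104 CPM in a library.

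COL7A1 (ENSG00000114270), the chain of the anchoring fibrils that tie epithelial basement membranes to the tissue below, rose. It was at 655, 657 and 565 CPM under CC-885 and at 432, 375 and 407 CPM with DMSO. Each CC-885 library exceeded each DMSO library, and COL7A1 was 1.54-fold higher (log2 fold change 0.63, SE 0.14, edgeR adjusted p = 0.00325). COL17A1, the transmembrane collagen of hemidesmosomes, which sit on the epithelial side of those fibrils, was at 0.966, 1.09 and 0.930 CPM under CC-885 and at 1.93, 1.74 and 2.49 CPM with DMSO. It went the other way at a far lower level (log2 fold change -1.04, SE 0.26, edgeR adjusted p = 0.00638). The other tested transmembrane chains, COL13A1 (log2 fold change 0.42, SE 0.32) and COL25A1 (0.01, SE 0.30), stayed between 0.679 and 1.13 CPM in every library and were not called (edgeR adjusted p = 0.291 and 0.983).

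Of the fibril-associated chains, which decorate the surface of fibrils, COL12A1 was higher and COL9A3 lower. COL12A1 (ENSG00000111799), a large chain bound to type I fibrils, was at 251, 276 and 273 CPM under CC-885 and at 207, 160.4 and 226 CPM with DMSO. Its groups did not overlap (log2 fold change 0.43, SE 0.15, edgeR adjusted p = 0.0295), but the gene no longer passed when CC-885 replicate 2 (edgeR adjusted p = 0.093) or 3 (0.0808) or DMSO replicate 1 (0.055) was left out. It was also lost with the stricter filter, which tests a gene if 3 or more libraries reach 5 CPM (edgeR adjusted p = 0.0538).

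COL9A3 (ENSG00000092758), a chain of the type IX collagen known from cartilage, was at 53.5, 48.4 and 42.3 CPM under CC-885 and at 142, 128 and 119 CPM with DMSO. The drop was 2.70-fold with a wide gap between the groups (log2 fold change -1.43, SE 0.14, edgeR adjusted p = 1.09e-05). Its exons overlap those of TCFL5 on the opposite strand, which was lower too, at 35.9 ± 3.27 CPM under CC-885 and 72.5 ± 8.24 CPM with DMSO (SD, n = 3; log2 fold change -1.01). Whether reads of TCFL5 contribute to the COL9A3 counts was not tested. The partner chain COL9A2 was at 6.06, 4.94 and 4.50 CPM under CC-885 and at 5.04, 5.09 and 6.38 CPM with DMSO, and was not called (log2 fold change -0.09, SE 0.19, edgeR adjusted p = 0.701). The COL9A2 to COL9A3 count ratio was 0.114, 0.102 and 0.107 under CC-885 and 0.035, 0.040 and 0.054 with DMSO, which did not overlap (difference in mean log2 ratio 1.34, exact permutation p = 0.1, adjusted 0.233). COL9A1, the third type IX chain, was at 0 in every library. COL16A1, at 5.03 to 5.55 CPM under CC-885 and 5.53 to 6.35 CPM with DMSO, was not called (log2 fold change -0.17, edgeR adjusted p = 0.393).

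The multiplexins, basement membrane collagens with interrupted helices, gave a lower COL15A1 beside an uncalled COL18A1. COL15A1 (ENSG00000204291) was at 76.0, 70.7 and 75.0 CPM under CC-885 and at 145, 100.05 and 146 CPM with DMSO. All CC-885 libraries were lower, and the change was 1.76-fold (log2 fold change -0.82, SE 0.16, edgeR adjusted p = 0.00117). COL18A1, the source of the fragment endostatin, was at 60.8, 55.7 and 47.1 CPM under CC-885 and at 66.0, 50.04 and 60.5 CPM with DMSO, overlapping (log2 fold change -0.11, SE 0.15, edgeR adjusted p = 0.549). COL26A1, at 1.17 to 2.17 CPM under CC-885 and 1.35 to 1.54 CPM with DMSO, was not called (log2 fold change 0.03, SE 0.30, edgeR adjusted p = 0.934), and its sign changed with library-size scaling.

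The remaining 17 chains were too low to test, with at most 28 counts, or 0.731 CPM, in any library. COL6A5, COL9A1, COL19A1, COL22A1 and COL23A1 were at 0 in all 6 libraries, where a count of 0 allows 0.078 to 0.0999 CPM per library (3 counts of the total, counting error only, and more if a fragment was counted more than once). COL8A1, a network-forming chain of vessels and the eye, had 0, 0.052 and 0 CPM under CC-885 and 0.365, 0.163 and 0.399 CPM with DMSO. COL14A1, a fibril-associated chain, had 0.067, 0 and 0.145 CPM under CC-885 and 0.731, 0.436 and 0.184 CPM with DMSO. COL10A1, a chain of growth plate cartilage, had 0 counts in each CC-885 library and 0.052, 0.082 and 0.246 CPM with DMSO. These 3 genes had non-overlapping groups and were called lower only when no filter on low counts was used (edgeR adjusted p = 0.01, 0.0225 and 0.0454). The other untested chains with any count were COL1A2, COL2A1, COL6A3, COL6A6, COL8A2, COL11A1, COL20A1, COL21A1 and COL28A1.

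The lysyl oxidases moved apart from each other. LOXL1 (ENSG00000129038), which acts on elastin and collagen, was at 2.86, 3.04 and 2.53 CPM under CC-885 and at 7.70, 6.81 and 9.39 CPM with DMSO. It was 2.83-fold lower without overlap (log2 fold change -1.50, SE 0.19, edgeR adjusted p = 7.31e-05). LOX (ENSG00000113083), the founding enzyme of the family, was at 29.7, 28.6 and 33.2 CPM under CC-885 and at 21.7, 19.3 and 26.1 CPM with DMSO. It was higher without overlap (log2 fold change 0.45, SE 0.15, edgeR adjusted p = 0.024), but not when CC-885 replicate 3 (edgeR adjusted p = 0.0857) or DMSO replicate 1 (0.075) or 2 (0.052) was left out. SRFBP1, which overlaps LOX on the opposite strand without shared exons, was higher as well (21.2 ± 3.14 and 8.84 ± 0.806 CPM, SD, n = 3; log2 fold change 1.26), and its part in the LOX counts was not tested.

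LOXL3 (ENSG00000115318) was at 3.96, 6.97 and 5.87 CPM under CC-885 and at 3.89, 3.38 and 2.85 CPM with DMSO. CC-885 replicate 1 was barely above the highest DMSO library, and the increase (log2 fold change 0.73, SE 0.23, edgeR adjusted p = 0.0193) was not called without CC-885 replicate 2 (edgeR adjusted p = 0.0941) or replicate 3 (0.0614). HTRA2, whose exons overlap those of LOXL3 on the opposite strand, was far more abundant, at 55.9 ± 8.2 CPM under CC-885 and 51.5 ± 7.84 CPM with DMSO (SD, n = 3), and was not called (log2 fold change 0.12). LOXL2, the oxidase that crosslinks type IV collagen and the most abundant of the 5, was at 104, 89.7 and 85.6 CPM under CC-885 and at 93.7, 60.4 and 109 CPM with DMSO. Its groups overlapped (log2 fold change 0.08, SE 0.20, edgeR adjusted p = 0.737), and without DMSO replicate 2 the log2 fold change was -0.11 (edgeR adjusted p = 0.444). LOXL4 was at 0.291 to 0.4996 CPM under CC-885 and 0.245 to 0.600 CPM with DMSO and was not called (log2 fold change 0.08, SE 0.47, edgeR adjusted p = 0.893).

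Of the lysyl hydroxylases only PLOD3 was called. PLOD3 (ENSG00000106397), which also adds sugars to hydroxylysine, was at 116, 93.4 and 109 CPM under CC-885 and at 81.3, 61.5 and 94.1 CPM with DMSO. DMSO replicate 3 lay just above CC-885 replicate 2, and the call (log2 fold change 0.43, SE 0.16, edgeR adjusted p = 0.0455) was lost in 6 of 14 alternatives, among them those leaving out CC-885 replicate 1 (edgeR adjusted p = 0.136) or 3 (0.114), or DMSO replicate 1 (0.0768) or 2 (0.0804). ZNHIT1, with exons overlapping PLOD3 on the opposite strand, went the other way (33.5 ± 3.64 and 54.6 ± 10.2 CPM, SD, n = 3; log2 fold change -0.70). PLOD1, the helical lysyl hydroxylase, was at 156, 148 and 150 CPM under CC-885 and at 179, 126 and 189.9 CPM with DMSO (log2 fold change -0.13, SE 0.16, edgeR adjusted p = 0.528). PLOD2, which modifies the ends of the chains, was at 139.6, 145 and 162 CPM under CC-885 and at 114, 149 and 124 CPM with DMSO (log2 fold change 0.20, SE 0.14, edgeR adjusted p = 0.238). DMSO replicate 2 held an extreme of its group in both: without it PLOD1 was called lower (-0.28, edgeR adjusted p = 0.03) and PLOD2 higher (0.33, edgeR adjusted p = 0.0271).

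The promoters of the members were searched for short motifs. RefSeq windows of 300 bases (250 before to 50 after a start, GRCh38.p14) were matched by symbol for 39 of the 52 genes, 54 windows in all. On either strand the AP-1 motif TGANTCA was found in 1 of the 54 windows (COL10A1; 1.85%), beside 7.71% of all 35116 windows. The TEAD motif GGAATG was in 4 windows (7.41%, against 14.03% of all), those of COL10A1, COL11A2, COL12A1 and LOXL3. The ATF4 composite motif TGATGNAA was in 1 window (COL21A1), the cyclic AMP element TGACGTCA and the E-box CACGTG in 0, beside 3.62, 1.85 and 7.26% of all. The core hypoxia motif ACGTG, which also lies inside the E-box, was in 11 windows (20.4%, against 21.4% of all), of COL4A3, COL5A1, COL6A6, COL11A2, COL12A1, COL15A1, LOX and PLOD2. GC boxes, searched after the data were seen, were in 30 windows (55.6%, against 45.0% of all) and CCAAT boxes in 16 (29.6%, against 34.6%). Counted by gene, 27 of the 39 members had a window with a GC box. A match is a string of letters and not a bound site.

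The wider machinery of collagen synthesis, secretion and reception was described through a list of 60 further genes. Of these 45 were tested, and 5 were higher and 16 lower, where 25.8% and 26.8% of all genes tested were so. ADAMTS3 and DCN, among the 16, passed the filter on low counts only through the DMSO libraries. The number lower was 11 to 19 with 1 library left out and 20 with scaling by library totals. The log2 fold changes of the 45 had a median of -0.24, beside -0.04 for all genes tested. Of the prolyl hydroxylases and their partners, which stabilise the helix, 2 of 10 were higher and 5 lower. P3H2, a prolyl 3-hydroxylase that acts on type IV chains, was at 201 ± 12.7 CPM under CC-885 and 128 ± 9.85 CPM with DMSO (SD, n = 3; log2 fold change 0.65, SE 0.13, edgeR adjusted p = 0.00135). P4HA1, a catalytic subunit of prolyl 4-hydroxylase, was higher (0.56, edgeR adjusted p = 0.0072), and its paralog P4HA2 was lower (-0.67, edgeR adjusted p = 0.00475). CRTAP, a partner of prolyl 3-hydroxylase, was lower, at 242 ± 10.8 and 381 ± 33.8 CPM (-0.66, edgeR adjusted p = 0.00174). P4HA3, the other catalytic subunit, was not called (-0.21, edgeR adjusted p = 0.217).

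Of the folding genes 4 of 8 tested were lower and 0 higher, and without CC-885 replicate 2 these counts were 2 and 1, the higher gene being SERPINH1. Lowest in p were the lectin chaperone CALR (log2 fold change -0.63, edgeR adjusted p = 0.00322) and the chaperone HSPA5 (-0.58, edgeR adjusted p = 0.00577). SERPINH1, the collagen-specific chaperone HSP47, was not called with all libraries, at 140.1 ± 50.1 and 117 ± 21.0 CPM (SD, n = 3), and is named here after its value was seen. Of 9 genes for export of large cargo from the endoplasmic reticulum, among them MIA3, 0 were called by the main edgeR fit, the DESeq2 Wald test or limma-voom. Only KLHL12 had an unadjusted edgeR p below 0.05. With scaling by library totals 2 were lower. The count was 1 lower with the filter at 5 CPM, with the replicate block, with halved counts or without DMSO replicate 2. Without DMSO replicate 3 it was 1 higher and 1 lower. Of the glycosyltransferases COLGALT1 was tested and not called (0.01, edgeR adjusted p = 0.938). Of the genes for propeptide removal 4 of 6 tested were lower, but only 1 of 6 when CC-885 replicate 2 or 3 was left out, 2 of 6 without DMSO replicate 3 and 2 of 6 with the DESeq2 Wald test. ADAMTS3, a procollagen N-proteinase, had 0 counts in each CC-885 library and 0.370 ± 0.0988 CPM with DMSO (SD, n = 3), so that, with 3 counts set as the floor in each library, it was at least 4.19-fold lower. ADAMTS3 also passed the filter only through the DMSO libraries, and the bound is smaller if a fragment was counted more than once. PCOLCE2, an enhancer of the C-proteinase, was lower (-0.53, edgeR adjusted p = 0.0199), but not when CC-885 replicate 2 (0.0704) or 3 (0.0767) or DMSO replicate 2 (0.0663) was left out. The median of this list was -0.50. ADAMTS3 is the lowest of the list as fitted and at its bound, so that choice cannot move the median.

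The collagen receptors went in different directions. DDR2, a receptor tyrosine kinase for fibrillar collagen, was at 10.4, 9.46 and 10.2 CPM under CC-885 and at 1.96, 2.18 and 3.16 CPM with DMSO, while DDR1, its paralog that also binds type IV collagen, was at 30.7, 30.3 and 30.4 CPM and at 48.8, 55.1 and 46.4 CPM. Neither gene's groups overlapped, DDR2 being higher (log2 fold change 2.04, SE 0.20, edgeR adjusted p = 1.51e-05) and DDR1 lower (-0.72, SE 0.12, edgeR adjusted p = 6e-04). ITGA1, the integrin subunit of a type IV collagen receptor, was higher (187 ± 18.1 and 114 ± 15 CPM, SD, n = 3; 0.71, edgeR adjusted p = 0.00148), with PELO inside it on the same strand. In that list 2 of 6 tested genes were higher and 1 lower. Of the fibril organisers 1 of 5 tested was higher and 2 lower. The proteoglycan gene DCN was lower, at 0.126 ± 0.00902 and 1.21 ± 0.308 CPM (SD, n = 3; -3.23, edgeR adjusted p = 8.21e-05), from 4 or 5 counts under CC-885, and passed the filter on low counts only through the DMSO libraries. TNXB, tenascin X, a gene with a near-identical pseudogene copy, was lower as well (-0.82, edgeR adjusted p = 0.000691). FN1, fibronectin, was higher (0.65, edgeR adjusted p = 0.0364), but not when CC-885 replicate 1 (0.0602), 2 (0.0705) or 3 (0.103), or DMSO replicate 1 (0.113) or 2 (0.103), was left out.

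**Figure D5:**
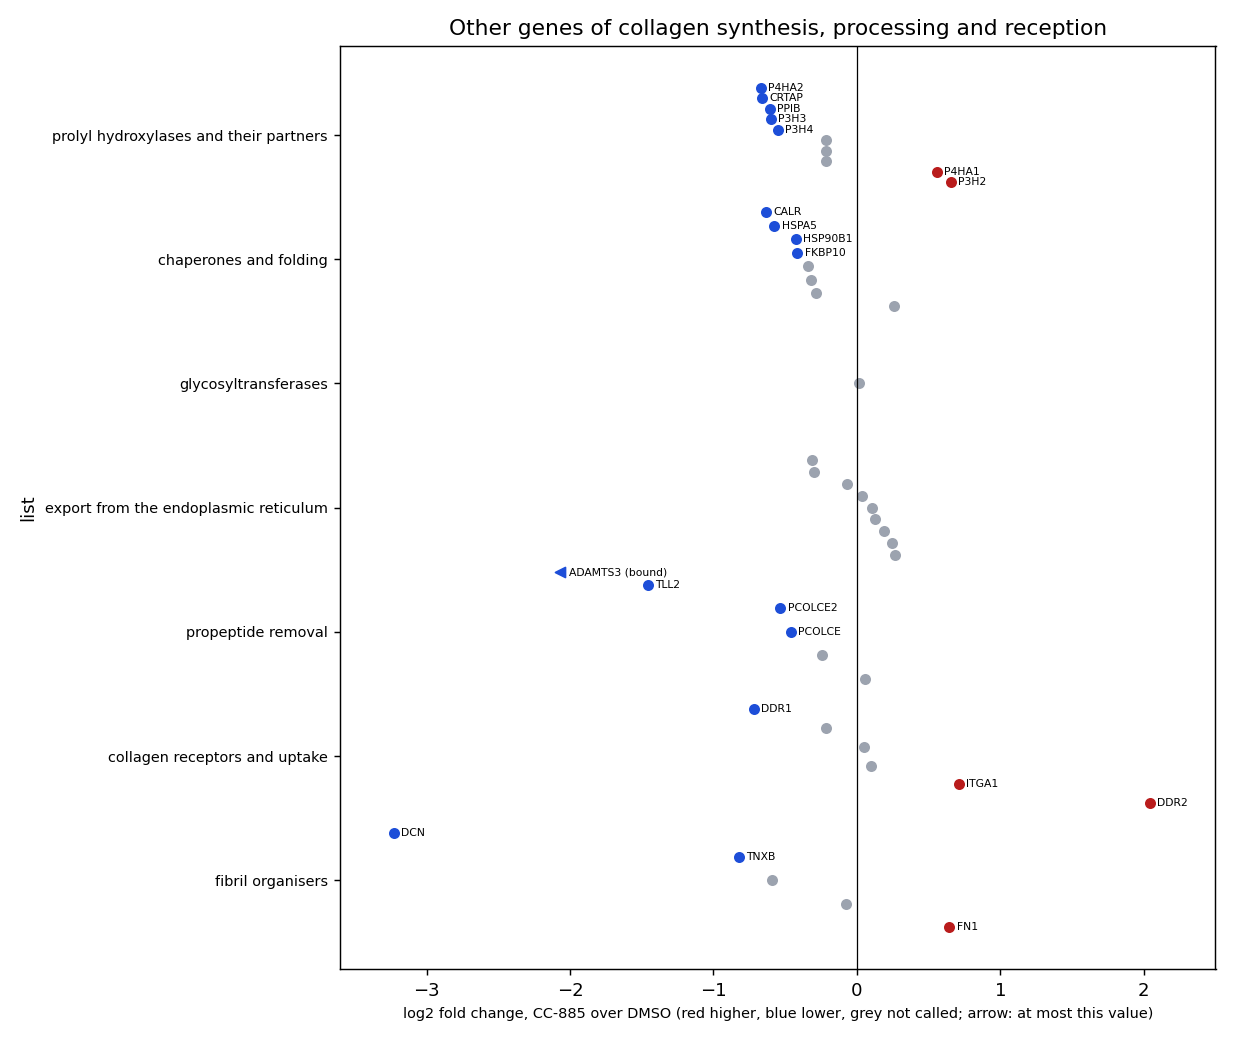
Log2 fold change of CC-885 over DMSO for the 45 tested genes of collagen synthesis, processing and reception, by list; called genes are labelled, in red where higher and blue where lower, grey points were not called, and the arrow marks ADAMTS3 at its bound. DDR2 stands farthest to the right and DCN farthest to the left, and the 9 export genes lie between -0.31 and 0.27.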

How the data were processed

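RNA sequencing was done on 6 libraries, 3 per group. The authors deposited raw counts per gene, whole numbers with no normalization, as read from the file's header and values. The aligner, counting program, annotation and strand setting were not given in the sources used here. Only mouse builds are named in the submitters' processing notes, whereas the 20263 rows carry human Ensembl identifiers; no coordinates were therefore taken for the table. Among counts from 1 to 49, 62.3% were even, so a fragment may have been counted more than once.

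Identifiers were paired with symbols by a gene name table (20148) or GENCODE 29 (76), and 39 had no name. The members and all lists were chosen with earlier results of these data known. The fit used edgeR 4.0.16 (R 4.3.3): TMM factors, filterByExpr (minimum count 10), robust quasi-likelihood F test between the groups without a covariate, Benjamini-Hochberg over all tested genes, threshold 0.05. Standard errors were approximated by dividing the size of the log2 fold change by the root of F. The fit was tested on simulated counts in which only a small part of the genes was changed. In these data 52.6% of the tested genes were called, so that test does not show how the fit performs here. Levels per kilobase used the union of GENCODE 29 basic exons. Partner ratios used counts plus 0.5, or plus 2 as an alternative. Libraries of a group all differed by more than counting noise. Named in full were each called member with a mean of at least 1 CPM and the 5 most abundant members, with values for other tested members and, per list of other genes, the 2 higher and 2 lower with the smallest p. In the alternatives, scaling was by DESeq2 size factors or by library totals, the test was the Wald test (DESeq2 1.42.0) or limma-voom (limma 3.58.1), the filter was dropped or raised to 5 CPM in 3 libraries, replicate number entered as a block, counts were halved, and each library was left out in turn.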

Additional observations from a re-analysis of the deposited data

How the results depend on the processing

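Of the 20 called members 14 kept their call and direction in every alternative in which they were tested, and COL4A5, COL11A2, COL12A1, LOX, LOXL3 and PLOD3 lost it in at least 1. The number of higher members was 7, but 4 with the filter raised to 5 CPM in 3 libraries, where LOXL3 was not tested and COL12A1 (adjusted p = 0.0538, edgeR) and PLOD3 (0.0804) no longer passed, and 3 to 7 when 1 library was left out: 3 without CC-885 replicate 3 and 4 without DMSO replicate 1. The number of lower members was 12 to 16 when 1 library was left out and 16 with no filter. With the replicate number as a block 7 members were higher and 13 lower, as without it. Libraries of the same number share little (correlation of deviations 0.096, 0.031 and 0.072, and CC-885 replicate 2 correlated best with another number), so the numbers are not taken as pairs. With halved counts 7 were higher and 13 lower.

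Sign changes were limited to 7 uncalled members. With library size only, which moved the median of all genes to -0.097, COL6A2 was at -0.031, COL25A1 at -0.053 and COL26A1 at -0.026. COL26A1 was also at -0.043 with limma-voom, -0.0064 with the block and -0.035 with halved counts. With 1 library left out COL4A2 ran from -0.0014 to 0.43, COL6A2 from -0.16 to 0.18, COL9A2 from -0.21 to 0.024, COL25A1 from -0.064 to 0.10, COL26A1 from -0.30 to 0.20, LOXL2 from -0.11 to 0.27 and LOXL4 from -0.14 to 0.62. COL3A1 passed with DESeq2 (adjusted p = 0.0243) and limma-voom (0.0281). The cause was not tested. Depth limits the 17 untested chains.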
